A study of Mus musculus with 23 samples.

Results

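H3K27ac peaks of Ebf2-EGFP+ cells were compared between the preplate stage, E11.5 (E, embryonic day), and E15.5, when the sorted cells are mostly Cajal-Retzius (CR) neurons. The comparison used 37055 peaks of the E11.5 list and 25787 peaks of the E15.5 list, together 62842 of the 230624 regions in the 8 lists of the series. A peak was called shared when it overlapped a peak of the other list by at least 1 bp, lost when it was listed at E11.5 only, and gained when it was listed at E15.5 only. Each of 21938 protein-coding transcription start sites (TSS) was then called kept, lost, gained or without H3K27ac, from the peaks within 5 kb of it.

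The 23 samples of the series form 12 groups by mark, stage and EGFP signal. Both stages compared here come from the cerebral cortex of embryos carrying the transgene Tg(Ebf2-EGFP)FB58Gsat, from which EGFP+ cells were sorted, with 2 ChIP and 2 input libraries at each stage. EGFP in this line follows the regulatory sequence of Ebf2 on the transgene, so the sorted population differs with age. At E11.5 it holds subplate as well as CR neurons, and at E15.5 mostly CR neurons. The stages therefore differ in age and in cell makeup, and these cannot be told apart. Only 1 peak list per group was deposited, read depth is unknown and there are no replicate lists, so no difference between the stages could be tested. Intervals are Wilson 95% confidence intervals and cover counting over peaks or genes only. A lost or gained peak is 1 that passed the peak caller's threshold in 1 list and not in the other. In sorted bulk cells, fewer cells carrying the mark and less mark per cell cannot be told apart.

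H3K27ac is the acetylation of lysine 27 on histone H3. It is placed by the acetyltransferases CBP and p300, removed by histone deacetylases, and found at active promoters and enhancers. The preplate is the earliest neuronal layer of the cortex, and later splits into the marginal zone, where CR neurons lie, and the subplate below the cortical plate. CR neurons secrete Reelin, the extracellular protein that directs the layering of the neurons born after them.

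The sequences below show the range of base composition among shared and stage-specific peaks. They come from the GRCm38 (mm10) assembly of RefSeq, are written 5′ to 3′ along the strand of the gene, with every CpG in capitals, and stop at annotated untranslated sequence. For Reln, kept at both stages, the middle of the E11.5 peak just upstream of the TSS lies at chr5:22344875-22345174 on the minus strand. It has 77% GC and 42 CpG in 300 bp. For Trp73, also kept, the upstream part of the E11.5 peak over the TSS lies at chr4:154140209-154140428 on the minus strand, with 15 CpG in 220 bp. For Ebf2, whose TSS lost H3K27ac, the E11.5 peak lies inside the gene at chr14:67235756-67235906 on the plus strand, with 7 CpG in 151 bp. For Nhlh1, also lost, the E11.5 peak nearest the TSS lies at chr1:172056911-172057162 on the minus strand, with 3 CpG in 252 bp. For Cxcr4, gained at E15.5, the stretch lies at chr1:128591901-128592200 on the minus strand, with 12 CpG in 300 bp. Next, 3 peaks are shown without regard to gene, each the widest of its group up to 300 bp, with ties taken in chromosome order. The shared peak is intergenic at chr6:47763271-47763570, the lost peak intergenic at chr1:162489628-162489927, and the gained peak covers exons of Alppl2 at chr1:87087797-87088096, all on the plus strand, with 22, 12 and 8 CpG.
Reln: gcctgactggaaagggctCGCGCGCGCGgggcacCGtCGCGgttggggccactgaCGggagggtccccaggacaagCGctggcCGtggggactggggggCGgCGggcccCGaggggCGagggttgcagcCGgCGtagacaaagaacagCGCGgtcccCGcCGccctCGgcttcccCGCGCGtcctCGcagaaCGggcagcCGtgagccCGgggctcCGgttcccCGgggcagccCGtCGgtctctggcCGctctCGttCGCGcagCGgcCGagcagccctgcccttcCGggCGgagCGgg
Trp73: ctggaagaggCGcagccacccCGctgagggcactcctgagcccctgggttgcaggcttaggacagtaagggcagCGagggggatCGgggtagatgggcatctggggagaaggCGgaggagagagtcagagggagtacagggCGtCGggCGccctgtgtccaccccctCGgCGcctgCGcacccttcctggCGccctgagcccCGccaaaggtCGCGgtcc
Ebf2: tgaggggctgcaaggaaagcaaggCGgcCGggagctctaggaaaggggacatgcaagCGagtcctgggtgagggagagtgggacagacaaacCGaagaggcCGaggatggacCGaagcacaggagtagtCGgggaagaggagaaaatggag
Nhlh1: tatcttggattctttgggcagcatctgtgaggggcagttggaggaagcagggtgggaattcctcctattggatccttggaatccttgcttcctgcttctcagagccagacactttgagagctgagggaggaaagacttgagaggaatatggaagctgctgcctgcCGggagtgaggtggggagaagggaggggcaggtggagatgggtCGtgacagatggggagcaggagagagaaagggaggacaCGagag
Cxcr4: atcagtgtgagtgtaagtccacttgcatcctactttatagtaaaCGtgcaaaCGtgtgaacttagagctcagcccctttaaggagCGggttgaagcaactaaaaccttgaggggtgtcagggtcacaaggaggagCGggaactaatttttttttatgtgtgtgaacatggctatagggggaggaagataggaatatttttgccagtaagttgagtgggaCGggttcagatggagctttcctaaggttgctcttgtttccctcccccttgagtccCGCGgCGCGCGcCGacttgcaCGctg
shared peak: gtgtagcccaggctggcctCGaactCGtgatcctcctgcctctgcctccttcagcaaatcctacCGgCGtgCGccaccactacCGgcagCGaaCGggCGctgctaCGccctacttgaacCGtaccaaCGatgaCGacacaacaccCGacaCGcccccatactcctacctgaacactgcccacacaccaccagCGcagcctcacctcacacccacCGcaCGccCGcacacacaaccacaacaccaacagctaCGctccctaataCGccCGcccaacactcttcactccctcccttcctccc
lost peak: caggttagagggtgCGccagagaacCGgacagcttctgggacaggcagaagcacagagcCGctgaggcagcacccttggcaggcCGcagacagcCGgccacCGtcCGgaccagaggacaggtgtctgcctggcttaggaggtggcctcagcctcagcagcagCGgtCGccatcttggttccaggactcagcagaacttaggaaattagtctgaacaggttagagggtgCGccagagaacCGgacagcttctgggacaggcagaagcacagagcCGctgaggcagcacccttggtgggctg
gained peak: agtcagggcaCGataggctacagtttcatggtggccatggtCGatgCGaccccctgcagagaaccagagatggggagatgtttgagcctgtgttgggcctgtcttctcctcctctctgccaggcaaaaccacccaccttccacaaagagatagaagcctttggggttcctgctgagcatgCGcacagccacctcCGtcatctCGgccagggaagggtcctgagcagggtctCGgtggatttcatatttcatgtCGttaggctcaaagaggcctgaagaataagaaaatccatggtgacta

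Of the E11.5 peaks, 10181 were shared with E15.5 (27.5%, 95% CI 27 to 27.9) and 26874 were lost. Of the E15.5 peaks, 9237 were shared with E11.5 (35.8%, 95% CI 35.2 to 36.4) and 16550 were gained. Most peaks of either list therefore had no counterpart in the other, and the peaks without one were narrow. Lost peaks had a median width of 192 bp, against 342 bp for the shared peaks of the same list. Gained peaks had a median width of 236 bp, against 604 bp for the shared peaks of the E15.5 list. The share of lost peaks was similar from chromosome to chromosome, between 65.7% on Y and 74.9% on 15.

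Sharing followed peak width and place. Of E11.5 peaks under 200 bp, 11.6% were shared, and of those of 500 to 1000 bp 85.4%. Among the widest, of at least 1000 bp, 394 of 403 E11.5 peaks were shared (97.8%) and 1874 of 1965 E15.5 peaks (95.4%). Peaks of at least 1000 bp thus nearly all overlapped a peak of the other list, which need not be as wide itself. Within 5 kb of a TSS, 62.0% of E11.5 and 58.2% of E15.5 peaks were shared. Farther away the shares were 8.98% and 15.3%, so that the 2 lists had promoters in common and mostly differed in distal peaks. The narrowest E15.5 peak was 184 bp wide and 13403 E11.5 peaks were narrower than that, so the lists also differ in their lower limit of width. Without those E11.5 peaks, some genes named below change class. For example, Ebf2, Cdk5, Kcnab1, Rab3c and Kdr, lost below, have no H3K27ac at either stage. Likewise Caly, Sox5, Myc and Aif1, which have H3K27ac at both stages below, are gained.

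**Figure D1:**
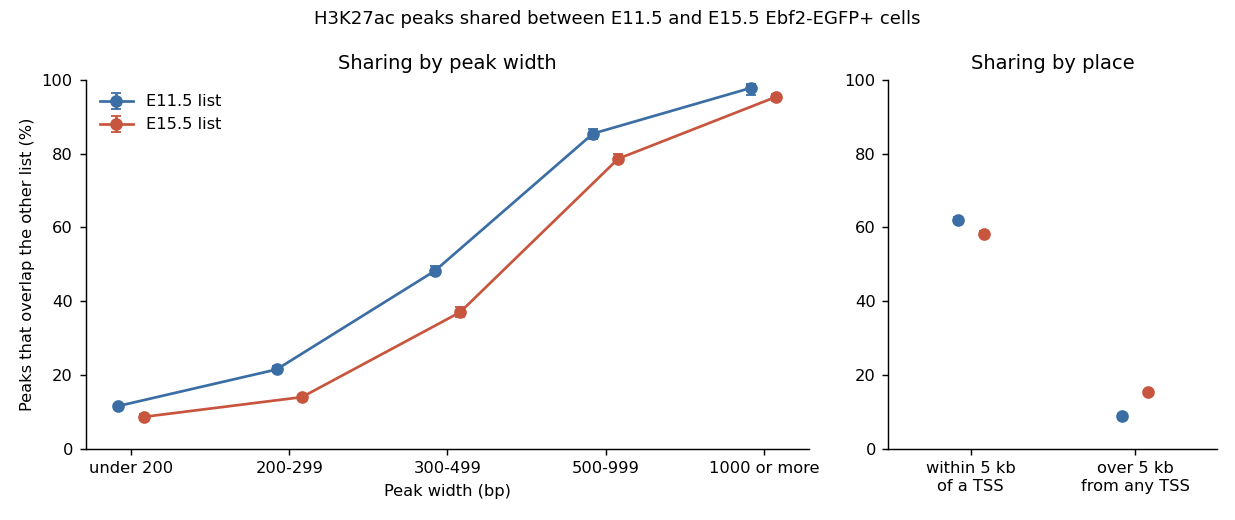
Percent of the peaks of each H3K27ac list that overlap the other list by at least 1 bp, by peak width in bp (left) and by place (right), with blue points for E11.5 and red points for E15.5 and bars for Wilson 95% intervals, which are mostly smaller than the points. Sharing climbs from 11.6% and 8.65% in the narrowest class to 97.8% and 95.4% in the widest, and is 62.0% and 58.2% near TSS against 8.98% and 15.3% elsewhere.

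Shared peaks lay at promoters, here within 1 kb of a protein-coding TSS, and stage-specific peaks lay mostly elsewhere. The centre was in a promoter for 69.8% of shared E11.5 peaks and 69.7% of shared E15.5 peaks. It was in a promoter for 7.27% of lost and 19.9% of gained peaks. Introns held 42.0% of lost and 36.8% of gained peaks, and intergenic sequence 30.7% and 27.9%. The median distance from peak to TSS was 368 bp for shared E11.5 peaks, 25721 bp for lost peaks and 17874 bp for gained peaks. As listed, gained peaks were therefore closer to TSS than lost peaks, but both were mainly distal. Over 5 kb from any TSS lay 81.7% of lost and 68.9% of gained peaks. The E11.5 list holds 13403 peaks narrower than any E15.5 peak, and the places of lost and gained peaks were not compared without them.

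Base composition divided the groups in the same way over all peaks, while single peaks overlapped. The CpG ratio is the observed number of CpG over that expected from the C and G content. Among the printed sequences it was 0.95 for Reln and 0.57 for Trp73, both kept, 0.67 for Ebf2 and 0.19 for Nhlh1, both lost, and 0.68 for Cxcr4, gained. Its median was 0.83 in shared E11.5 peaks and 0.81 in shared E15.5 peaks, against 0.26 in lost and 0.31 in gained peaks. The order was the same among distal peaks: over 5 kb from any TSS, 48.8% of shared E11.5 peaks but 9.41% of lost and 9.95% of gained peaks had a ratio of at least 0.6. Near TSS, gained peaks were more often CpG-rich than lost peaks (54.1% against 31.9%), again with the narrow E11.5 peaks included. Sequence masked as repeat made up at least 50% of the peak for 16.4% of lost, 12.3% of gained and 4.28% of shared E11.5 peaks.

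**Figure D2:**
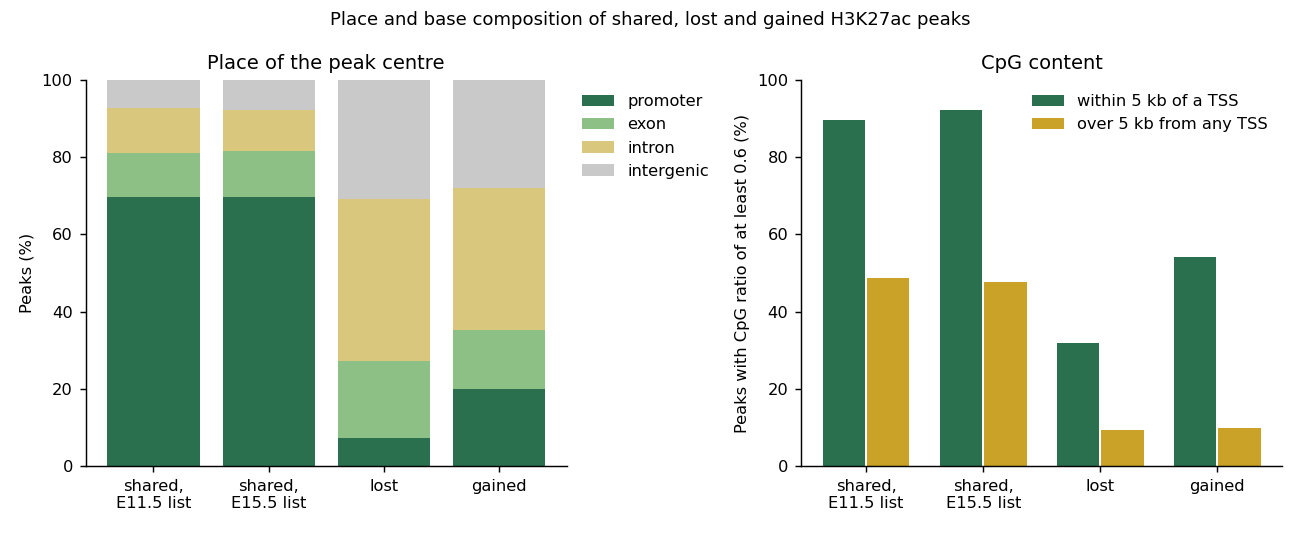
Left, percent of peaks whose centre lies in a promoter, exon, intron or intergenic sequence, for shared peaks of either list and for lost and gained peaks. Right, percent of peaks with a CpG ratio of at least 0.6, within 5 kb of a TSS (green) and farther away (gold). Promoters hold 69.8% and 69.7% of shared peaks but 7.27% of lost and 19.9% of gained peaks, and CpG-rich peaks are most frequent among shared peaks in both places.

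Of 12 short motifs searched, 4 are given here. They were counted on both strands in the 300 bp around the centre of distal peaks, or in promoters, as a description of sequence and not of binding. The EBF motif TCCCNNGGG, the target of the factor family that holds Ebf2, was present in 14.7% of shared distal E11.5 peaks, 9.68% of lost and 8.64% of gained distal peaks. The E-box CAGATG, read by proneural factors such as Neurod and Neurog proteins, was present in 15.1% of shared distal E11.5 peaks, 25.8% of lost and 24.9% of gained distal peaks. For these 2 motifs, lost and gained distal peaks were close to each other and stood apart from the shared peaks. Median GC content divided them likewise, with 62.9% in shared distal E11.5 peaks, 55.9% in lost and 54.6% in gained distal peaks. The motif counts were not adjusted for base composition, so they show no preference for either motif beyond it. In promoters, from 250 bp before to 50 bp after the TSS, the EBF motif was present in 7.73% and the E-box in 15.2% of all genes.

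At shared sites the H3K27ac peaks were wider at E15.5. Peaks of both lists that overlap were joined into 9159 sites, of which 8161 (89.1%) held 1 peak of each list. At 921 sites (10.1%), 2 or more E11.5 peaks faced 1 E15.5 peak, and at 67 sites (0.732%) the reverse was found. Joined E11.5 peaks were therefore far more frequent than split ones. The median summed width was 384 bp at E11.5 and 611 bp at E15.5. The median log2 ratio, E15.5 over E11.5, was 0.54 (95% CI 0.52 to 0.56). At 7570 sites (82.7%) the E15.5 width was the larger, at 2340 (25.5%) by 2-fold or more, and at 154 (1.68%) the E11.5 width was larger by 2-fold or more. The ratio was larger near TSS (0.60) than at the 2042 distal sites (0.33). By E11.5 width, the median ratio was 1.07 for sites below 200 bp and 0.38 from 500 bp. The E11.5 width is itself the lower term of the ratio, and no E15.5 peak is narrower than 184 bp. Sites below 200 bp could thus hardly narrow (98.6% were wider), and no conclusion is drawn from this order. Over all shared sites, the median ratio was 0.50 without E11.5 peaks narrower than the narrowest E15.5 peak. With peaks of at least 300 bp in both lists it was 0.49. The cause of the wider E15.5 peaks was not tested.

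Around TSS, 10957 genes (49.9%) carried H3K27ac at E11.5 and 11468 (52.3%) at E15.5. H3K27ac was kept at 8784 TSS, which is 40.0% of all 21938. It was lost at 2173 (9.91%) and gained at 2684 (12.2%), and 8297 had none at either stage. Counted from E11.5, 19.8% of the marked TSS lost H3K27ac and 24.4% of the unmarked TSS gained it. The balance of lost and gained depended on peak width: with peaks of at least 300 bp, 888 TSS were lost and 3909 gained, with lists of equal length 1616 and 3375, and without E11.5 peaks narrower than the narrowest E15.5 peak 1497 and 3564. These percentages over all genes are the background for each gene group below.

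Kept, lost and gained TSS differed in how much H3K27ac they carried and where. Kept TSS had a median of 475 bp of peak sequence within 5 kb at E11.5 and 771 bp at E15.5, a median log2 ratio of 0.61. Peak sequence was at least 2-fold more at E15.5 for 2722 kept TSS (31.0%) and at least 2-fold less for 277 (3.15%). The TSS itself lay inside a peak for 34.1% of kept TSS at E11.5 and 58.0% at E15.5, so the wider peaks more often reached over it. Lost TSS had a median of 237 bp, with the nearest peak 672 bp away and within 1 kb for 56.8%. Gained TSS had a median of 381 bp, with the nearest peak 66.5 bp away and within 1 kb for 79.8%. H3K27ac of gained TSS thus sat at the promoter more often than that of lost TSS. The lost TSS include some marked only by E11.5 peaks narrower than any E15.5 peak. The window mattered for some, since 416 of the 2173 lost TSS (19.1%) had an E15.5 peak within 10 kb, and 624 of the 2684 gained TSS (23.2%) an E11.5 peak.

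**Figure D3:**
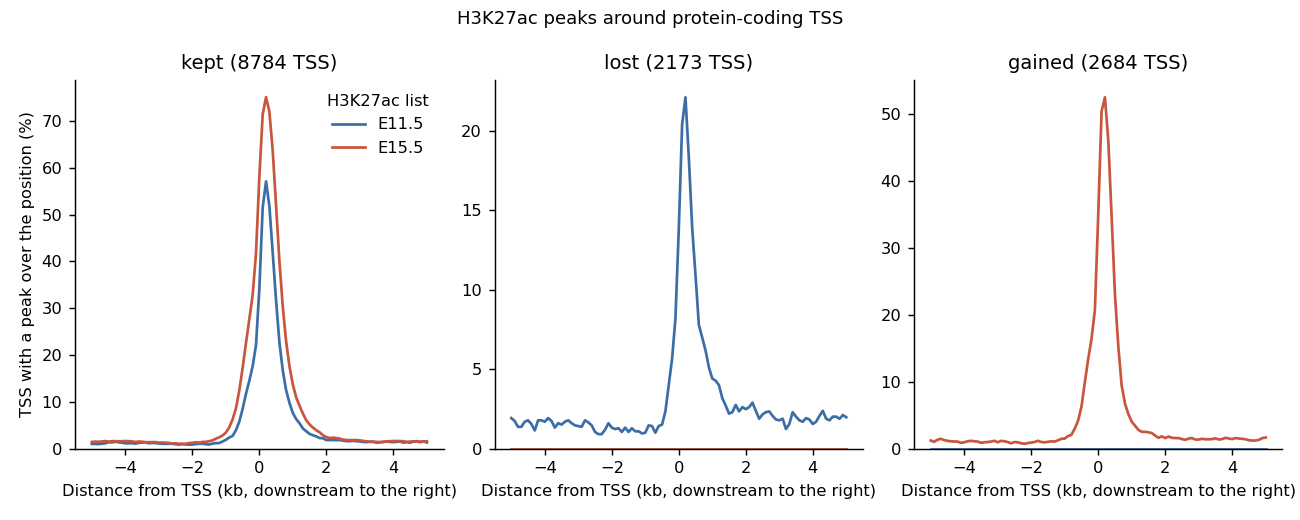
Percent of kept, lost and gained TSS with a peak over each position from 5 kb upstream to 5 kb downstream of the TSS, in kb, at E11.5 (blue) and E15.5 (red), with a vertical scale of its own for each panel. All curves peak 200 bp downstream of the TSS, at 57.1% and 75.1% for kept TSS, 22.1% for lost and 52.5% for gained TSS.

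Promoter sequence followed the classes. CpG-rich promoters, with at least 55% GC and a CpG ratio of at least 0.6, made up 64.5% of kept, 43.1% of gained and 26.0% of lost TSS. They made up 7.67% of TSS without H3K27ac and 36.6% of all. The SP/KLF motif GGGGCGGGG occurred in 23.1% of kept, 17.1% of gained and 13.8% of lost promoters, and in 14.5% of all. The ETS motif CCGGAAGT, common in promoters of housekeeping genes, occurred in 7.51% of kept and 8.12% of gained promoters, but in 1.93% of lost promoters and 4.70% of all. Promoters that gained H3K27ac thus resembled kept promoters in the ETS motif, and lost promoters did not. In the SP/KLF motif gained promoters lay between kept and lost ones, and not every motif searched had the ETS order. The lost class includes TSS marked only by E11.5 peaks narrower than any E15.5 peak.

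The other lists of the series gave a further readout for the same TSS. In the H3K27ac list of E13.5 Ebf2-EGFP+ cells, 82.7% of kept, 75% of lost and 66.6% of gained TSS were marked, against 60.9% of all. The E13.5 list is the longest of the series with 102877 peaks. Of distal peaks, it overlapped 58.7% of shared E11.5, 27.4% of lost and 20.8% of gained peaks. H3K27me3, the Polycomb mark of silent genes, was listed in E11.5 Ebf2-EGFP+ cells at 10.5% of lost, 6.28% of kept and 3.99% of gained TSS, against 4.92% of all. At E13.5 the order was the same, with 16.4%, 12.5% and 9.39%, against 9.31% of all. In E15.5 Ebf2-EGFP+ cells the order did not hold, with H3K27me3 at 131 of 8784 kept TSS (1.49%), 34 of 2684 gained TSS (1.27%) and 24 of 2173 lost TSS, and at 1.06% of all TSS. In E11.5 EGFP- cells the list labelled H3K27me3 held 72.8% of kept, 57.5% of lost and 49.3% of gained TSS, against 48.2% of all, so that it lay at TSS that carry H3K27ac in the EGFP+ cells. Why it did was not tested.

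The markers of the sorted cells were examined next. Of 30 CR markers, 20 were kept, 4 lost and 2 gained, and 4 had no H3K27ac at either stage. Marked members were 80.0% at E11.5 and 73.3% at E15.5, against 49.9% and 52.3% of all TSS. Their summed peak sequence was 13776 bp at E11.5 and 17681 bp at E15.5. With E11.5 peaks no narrower than the narrowest E15.5 peak, the shares were 66.7% and 73.3%, so the direction over the list turned with the width limit. Several members of the list were chosen by the study on expression in the same cells, so it is not independent of them.

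Reln had 542 bp of H3K27ac peak sequence within 5 kb of the TSS at E11.5, 126 bp at E13.5 and 1625 bp at E15.5. At E11.5 this was a pair of peaks on either side of the TSS, of 216 and 326 bp, and at E15.5 a single peak over it at chr5:22343705-22345329. The E13.5 value was the lowest of the stages although that list was the longest. Trp73, the p53-related factor needed for CR neuron survival, had 286 bp at E11.5, 782 bp at E13.5 and 665 bp at E15.5. Lhx5, a LIM homeodomain factor of CR neurons, had 846 bp at E11.5, 1130 bp at E13.5 and 1150 bp at E15.5. For both, the E11.5 value was the lowest of the stages. Caly, which acts in endocytosis at the synapse, had the largest fold among kept CR markers, with 151 bp at E11.5 and 1417 bp at E15.5 (9.38-fold), but its E11.5 peak is narrower than any E15.5 peak. Ebf3 had 881 bp at E11.5 and 1337 bp at E15.5, and Tbr1, a T-box factor of early glutamatergic neurons, 1716 bp and 2075 bp. Of the 20 kept CR markers, 6 had at least 2-fold more peak sequence at E15.5 and 0 had at least 2-fold less. Over all kept TSS the shares were 31.0% and 3.15%, so these counts did not set the CR markers apart. The median log2 ratio of the kept CR markers was 0.36, against 0.61 for all kept TSS.

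Among CR markers that lost H3K27ac was Ebf2 itself, the gene whose regulatory sequence drives EGFP. It had 151 bp at E11.5 in a peak 2464 bp downstream of the TSS, 147 bp at E13.5 upstream of the TSS, and 0 at E15.5. Its E11.5 peak is narrower than any E15.5 peak, and without such peaks 3 CR markers were lost, Ebf2 no longer among them. Nhlh1, a basic helix-loop-helix factor of newborn neurons, had 1082 bp in 4 peaks at E11.5, 173 bp at E13.5 and 0 at E15.5. Cacna2d2, an auxiliary calcium channel subunit, had 843 bp in 3 peaks at E11.5, 165 bp at E13.5 and 0 at E15.5. Cdkn1a, the cell cycle inhibitor p21, had 267 bp at E11.5, 134 bp at E13.5 and 0 at E15.5. The related Nhlh2 was kept, with 1126 bp at E11.5 and 933 bp at E15.5. The gained CR markers were Cxcr4, the receptor for the chemokine of the meninges, and Brinp1. Cxcr4 had 0 at E11.5 and E13.5 and 918 bp in 3 peaks at E15.5, and Brinp1 had 0, 0 and 224 bp. Calb1, Calb2, Ebf1 and Sncb had no peak at E11.5 or E15.5, of which Calb2, Ebf1 and Sncb had 412, 426 and 624 bp at E13.5.

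**Figure D4:**
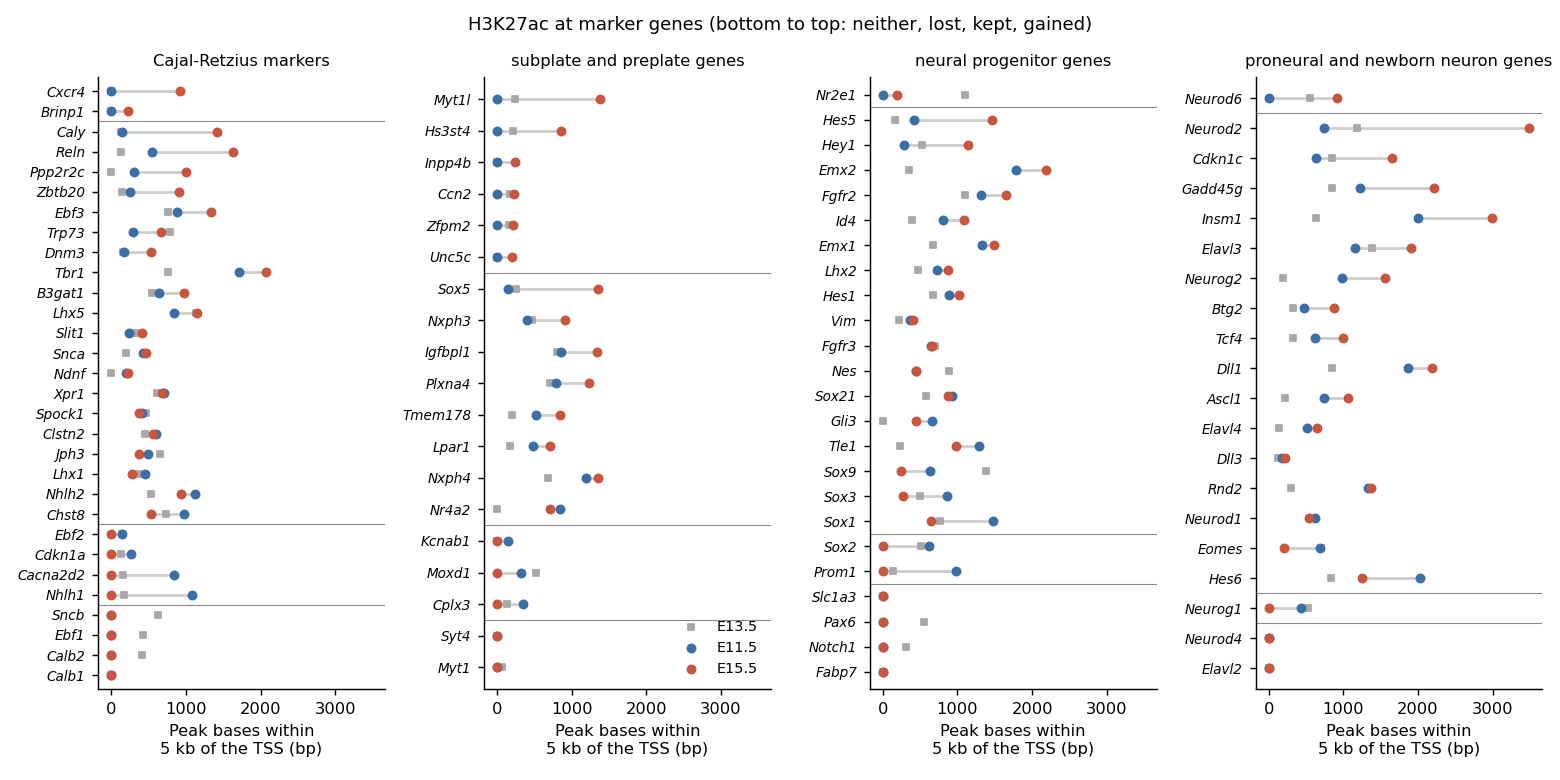
Peak bases (bp) within 5 kb of the TSS at E11.5 (blue circles), E13.5 (grey squares) and E15.5 (red circles) for every member of 4 marker lists, ordered within each list from the bottom as TSS without H3K27ac at E11.5 and E15.5, lost, kept and gained. Reln lies at 542 bp at E11.5 and 1625 bp at E15.5, Neurod2 at 746 and 3492 bp, and Sox2 at 622 bp and 0.

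Of 19 subplate and preplate genes, 8 were kept, 3 lost and 6 gained, and marked members were 57.9% at E11.5 and 73.7% at E15.5. Their summed peak sequence was 6037 bp at E11.5 and 11565 bp at E15.5. Subplate genes were thus marked at E15.5, when the sorted cells are described as mostly CR neurons. Sox5, a factor of deep-layer and subplate neurons, had 142 bp at E11.5, 250 bp at E13.5 and 1352 bp at E15.5. Myt1l, a zinc finger factor of neurons, had 0 at E11.5, 248 bp at E13.5 and 1385 bp at E15.5. Ccn2, a secreted protein of subplate neurons, had 0 at E11.5, 168 bp at E13.5 and 230 bp at E15.5. Kept members included Nr4a2, with 846 bp at E11.5 and 715 bp at E15.5, and Nxph4, with 1192 and 1356 bp. Cplx3, Moxd1 and Kcnab1 were lost, with 354, 317 and 149 bp at E11.5.

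Progenitor genes kept H3K27ac for the most part. Of all 24 members, 17 were kept, 2 lost and 1 gained. Marked members were 79.2% at E11.5 and 75% at E15.5, and the summed peak sequence of the list was 16426 and 16053 bp. The median log2 ratio of kept members was 0.17, against 0.61 for all kept TSS. Sox2, the SOX factor that defines neural stem cells, had 622 bp at E11.5, 505 bp at E13.5 and 0 at E15.5. Prom1, which encodes the stem cell protein CD133, had 980 bp at E11.5, 136 bp at E13.5 and 0 at E15.5. The related Sox1, Sox3 and Sox9 were kept with at least 2-fold less, where Sox1 had 1475 bp at E11.5 and 650 bp at E15.5, Sox3 856 and 276 bp, and Sox9 636 and 241 bp. The Notch target Hes5 had more, with 416 bp at E11.5 and 1467 bp at E15.5. Pax6, the homeodomain factor of radial glia, had no peak at E11.5 or E15.5 and 551 bp at E13.5.

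Proneural and newborn neuron genes were marked in 85.0% of 20 members at both stages, with 16 kept. Neurod2, a basic helix-loop-helix factor of differentiating glutamatergic neurons, had 746 bp at E11.5, 1190 bp at E13.5 and 3492 bp at E15.5. Neurod6 was the gained member, with 0 at E11.5, 558 bp at E13.5 and 912 bp at E15.5. Neurog1 was the lost member, with 430 bp at E11.5, 527 bp at E13.5 and 0 at E15.5, and Eomes, the factor of intermediate progenitors, was kept with 694 bp at E11.5 and 207 bp at E15.5. Other genes of early steps were kept with more, such as Neurog2 with 982 and 1554 bp. Among 21 cortical plate and layer factors, 16 were kept with a median log2 ratio of 1.20, against 0.61 for all kept TSS. Bcl11a had 1394 bp at E11.5 and 5405 bp at E15.5, and Fezf2 772 and 2760 bp, both of them transcription factors of the cortical plate. Foxp2 was the lost member, with 663 bp at E11.5 and 0 later.

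Genes of other cell types that the sort could have carried were marked less often. The 5 lists of microglia, endothelium, meninges, glia and erythroid cells held 70 genes, of which 17 were marked at E11.5 and 20 at E15.5. Their mean peak sequence was 87.3 bp a gene at E11.5 and 106 bp at E15.5, against 252 and 402 bp over all TSS. At E13.5 46 of the 70 were marked, with 318 bp a gene against 281 bp over all TSS. Of the defining markers, Csf1r and C1qa of microglia and Pecam1 and Cdh5 of endothelium had no peak at E11.5 or E15.5. The same held for Dcn of meninges, Gfap of astrocytes and Hba-a1 of erythroid cells. At E13.5 Csf1r had 126 bp, C1qa 576 bp, Cdh5 170 bp, Gfap 704 bp and Hba-a1 536 bp. The others were Aif1 with 154 bp at E11.5 and 201 bp at E15.5, Kdr with 167 bp and 0, Col1a1 with 8 bp and 0, Foxc1 with 964 and 230 bp, Olig2 with 559 and 256 bp, Sox10 with 0 and 224 bp, and Klf1 with 0 and 184 bp. The part of such cells in any result was not tested.

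Neurotransmission genes were among those gained. Of 43 genes of synaptic vesicle release, 20 were kept, 13 gained and 3 lost, and marked members were 53.5% at E11.5 and 76.7% at E15.5. Of the 20 members unmarked at E11.5, 65.0% (95% CI 43.3 to 81.9) gained H3K27ac, against 24.4% of all unmarked TSS. Syp, the vesicle protein synaptophysin, had 0 at E11.5, 139 bp at E13.5 and 1467 bp at E15.5. Snap25, a SNARE of the presynaptic membrane, had 0 at E11.5 and E13.5 and 757 bp at E15.5. Both thus carried most of their H3K27ac at the last stage. Unc13a, a vesicle priming protein, was kept with 725 bp at E11.5 and 2417 bp at E15.5. The lost members were Syt2 (822 bp at E11.5), Cplx3 and Rab3c (180 bp).

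As listed, receptors and channels gained H3K27ac at a smaller share of their unmarked members than vesicle release genes, with wide intervals. Of 41 glutamate and GABA receptor genes, 11 were kept, 8 gained and 6 lost. Gria2, the AMPA receptor subunit that limits calcium entry, had 0 at E11.5, 339 bp at E13.5 and 2354 bp at E15.5, in 2 peaks of which 1 lay over the TSS. It had the most peak sequence of any gained TSS outside the HoxA cluster and the start of chromosome 9. Grin2b, an NMDA receptor subunit, had 0 at E11.5 and E13.5 and 855 bp at E15.5, while Grin2a had 466 bp at E11.5, 1248 bp at E13.5 and 0 at E15.5. Of 28 voltage-gated sodium and calcium channel genes, 11 were kept, 4 gained and 3 lost, and of 40 potassium channel genes 21, 6 and 6. Of those unmarked at E11.5, 28.6% and 46.2% gained H3K27ac. Of 32 cytoskeleton and growth cone genes, 24 were kept with a median log2 ratio of 1.1. Tuba1a, the neuronal alpha-tubulin, had 625 bp at E11.5, 349 bp at E13.5 and 2607 bp at E15.5. Gap43, a growth cone protein, had 0 at E11.5 and E13.5 and 210 bp at E15.5, and Nefm, a neurofilament, had 938 bp at E11.5, 293 bp at E13.5 and 0 at E15.5. Of 70 axon guidance genes, 49 were kept, 10 gained and 7 lost.

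Genes of respiration and protein turnover also gained H3K27ac. Of 86 respiratory chain genes, 54 were kept, 22 gained and 3 lost, and marked members were 66.3% at E11.5 and 88.4% at E15.5. Of those unmarked at E11.5, 75.9% (95% CI 57.9 to 87.8) gained it, against 24.4% of all unmarked TSS. All 24 gained peaks at these TSS lay in promoters. Of 39 proteasome subunits, 25 were kept, 10 gained and 0 lost, with 64.1% and 89.7% marked. Of 83 cytosolic ribosomal protein genes, 69 were kept, 9 gained and 0 lost, with 83.1% and 94.0% marked. Ndufb11, a subunit of complex I, had 0 at E11.5 and E13.5 and 1034 bp at E15.5, and Psmc4, a proteasome ATPase, had 0, 0 and 679 bp. Among 365 zinc finger genes of the Zfp series, 177 were kept, 71 gained and 22 lost, with 54.5% and 67.9% marked. CpG-rich promoters made up 46.5% of the respiratory chain, 47.0% of the ribosomal, 48.7% of the proteasome and 35.6% of the zinc finger list, against 36.6% of all genes.

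Proliferation genes were divided. Of 44 cell cycle genes, 12 were kept, 12 gained and 9 lost, and of the 21 marked at E11.5, 42.9% (95% CI 24.5 to 63.5) lost H3K27ac, against 19.8% of all marked TSS. Of the 23 unmarked at E11.5, 52.2% (95% CI 33 to 70.8) gained it, against 24.4% of all, so that marked members were 47.7% at E11.5 and 54.5% at E15.5. Without E11.5 peaks narrower than the narrowest E15.5 peak, 5 were lost and 14 gained. Mki67, the marker of cycling cells, had 588 bp at E11.5, 587 bp at E13.5 and 0 at E15.5. Ccne1, the cyclin of S phase entry, had 1109 bp at E11.5, 553 bp at E13.5 and 0 at E15.5. Kif11, a mitotic kinesin, went the other way, with 0 at E11.5 and E13.5 and 722 bp at E15.5. Birc5, of the mitotic spindle, was gained as well, with 526 bp at E15.5, and Ccnb2, a mitotic cyclin, was lost, with 394 bp at E11.5. Mitotic genes were thus found in both directions.

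Lost H3K27ac was frequent at ventral forebrain genes, clustered protocadherins and regulators of other lineages. Of 20 GABAergic and ventral forebrain genes, 6 were kept, 7 lost and 1 gained, with 65.0% marked at E11.5 and 35.0% at E15.5. Of the marked members, 53.8% (95% CI 29.1 to 76.8) lost H3K27ac, against 19.8% of all. Slc32a1, the vesicular GABA transporter, had 920 bp at E11.5, 1311 bp at E13.5 and 0 at E15.5. Nr2f1, which also patterns the cortex, was kept with 1676 bp at E11.5 and 3298 bp at E15.5. Of 38 transcription factors of non-neural lineages, 13 of the 16 marked at E11.5 lost H3K27ac (81.2%, 95% CI 57.0 to 93.4), such as Tal1 with 489 bp, Foxa1 with 476 bp and Hand1 with 456 bp. Skin and cornified envelope genes had 26.8% of 138 members marked at E11.5 and 14.5% at E15.5, and olfactory and vomeronasal receptors 3.60% and 2.61% of 1418. With E11.5 peaks no narrower than the narrowest E15.5 peak, the receptor shares were 1.83% and 2.61%, the other way round. The lost TSS of the receptor list rested on 44 peaks with a median width of 182 bp, and those of the skin list on 28 peaks with a median of 220.5 bp.

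Clustered protocadherins, cell surface proteins of neuronal self-recognition, had the highest share lost of any neural list examined. Of 56 genes, 27 were lost, 10 kept and 4 gained, with 66.1% marked at E11.5 and 25% at E15.5. Of the 37 marked at E11.5, 73.0% (95% CI 57.0 to 84.6) lost H3K27ac. The 27 lost TSS rested on 24 peaks, since TSS in the clusters lie close together, and 18 of these peaks were in exons. Pcdha12 had 900 bp at E11.5, 548 bp at E13.5 and 0 at E15.5. With a window of 1 kb around the TSS, 12.5% were marked at E11.5 and 10.7% at E15.5, so most of the difference lay outside the promoters.

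**Figure D5:**
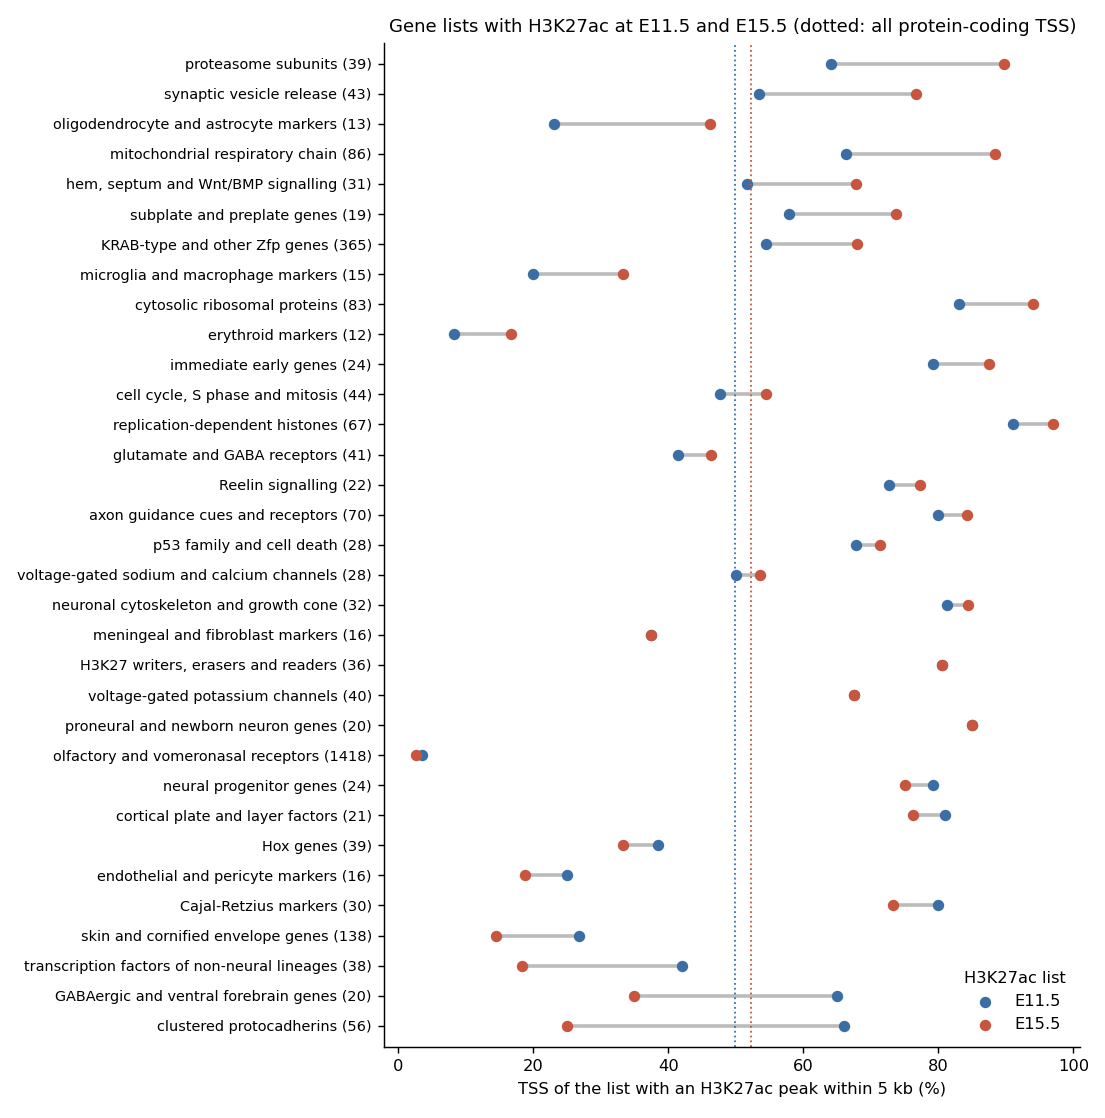
Percent of the TSS of each gene list with an H3K27ac peak within 5 kb at E11.5 (blue) and E15.5 (red), with the number of genes in brackets and lists ordered by the difference. Dotted lines mark all protein-coding TSS, at 49.9% and 52.3%. Proteasome, synaptic vesicle and respiratory chain genes are higher at E15.5 (89.7%, 76.7% and 88.4%), and clustered protocadherins and GABAergic genes are lower (25% and 35.0%).

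Signalling genes of the cortical hem and septum, where CR neurons arise, were both gained and lost at larger shares than all TSS. Of 31 genes, 11 were kept, 10 gained and 5 lost, with 51.6% marked at E11.5 and 67.7% at E15.5. Of the 15 unmarked at E11.5, 66.7% (CI 41.7 to 84.8) gained H3K27ac, against 24.4% of all unmarked TSS. Of the 16 marked at E11.5, 31.2% (CI 14.2 to 55.6) lost it, against 19.8% of all marked TSS. For the loss, the share of all TSS lies inside the interval of the list. Wnt3a, the Wnt of the hem, had 404 bp at E11.5, 758 bp at E13.5 and 0 at E15.5. Lmx1a, a homeodomain factor of the hem, had 0 at E11.5, 657 bp at E13.5 and 461 bp at E15.5, and Rspo3, which amplifies Wnt signals, 0, 0 and 648 bp. Of 22 genes of Reelin signalling, 15 were kept, 2 gained (9.09%) and 1 lost (4.55%), against 12.2% gained and 9.91% lost of all TSS. Vldlr, a Reelin receptor, had 565 bp at E11.5, 520 bp at E13.5 and 1786 bp at E15.5. Cdk5r1, the p35 activator of Cdk5, had 1117 bp at E11.5 and 2785 bp at E15.5, whereas Cdk5 was the lost member, with 164 bp at E11.5 and 166 bp at E13.5. That E11.5 peak is narrower than any E15.5 peak, and without such peaks, or with lists of equal length, 0 genes of this list were lost. Of 28 genes of the p53 family and of cell death, 17 were kept, 3 gained (10.7%) and 2 lost (7.14%), near the shares of all TSS. Trp53 had 270 bp at E11.5, 126 bp at E13.5 and 1209 bp at E15.5, and Bcl2, which protects from apoptosis, had 0, 371 and 920 bp.

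Of 36 genes whose products write, erase or read H3K27 marks, 28 were kept, and 80.6% were marked at both stages. Kdm6b, which removes methyl groups from H3K27, had 2442 bp at E11.5, 1379 bp at E13.5 and 5308 bp at E15.5. Brd2, a reader of acetylated histones, had 2366 bp at E11.5 and 4713 bp at E15.5, in a peak that it shares with H2-DMa. Setd1b, a methyltransferase for lysine 4 of the same histone, had 2167 bp at E11.5 and 4232 bp at E15.5. Of 24 immediate early genes, 18 were kept and 3 gained, with Jun at 1035 bp at E11.5 and 2539 bp at E15.5. Of 67 replication-dependent histone genes, 59 were kept, and these share peaks within the histone cluster.

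The kept TSS with the largest increase in peak sequence, outside the start of chromosome 9, were Bcl11a with its divergent neighbour A830031A19Rik, Tnrc18, and Gnao1, the G protein subunit abundant in neurons. Tnrc18 had 3778 bp at E11.5, 252 bp at E13.5 and 6858 bp at E15.5, the most of any kept TSS. Gnao1 had 673 bp at E11.5, 1032 bp at E13.5 and 3587 bp at E15.5. The next were Hivep2 with 512 and 3389 bp, Kdm6b, Neurod2, Meis2 with 365 and 3037 bp, Ptprg with 747 and 3178 bp, and Myc with 316 and 2701 bp. Bcl11a, Hivep2, Neurod2, Meis2 and Myc encode transcription factors, Kdm6b a histone demethylase and Ptprg a receptor phosphatase. The largest decreases were at 4930404N11Rik, with 1610 bp at E11.5 and 193 bp at E15.5, Gm13279, with 1594 and 193 bp, and Uncx, a homeobox gene, with 1715 and 322 bp. At Nat14 it was 1916 and 615 bp, at Arhgef17 1473 and 319 bp, and at Wfikkn1 1279 and 95 bp.

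The lost TSS with the most peak sequence at E11.5 were led by Nkx6-1, a homeodomain factor of ventral neural progenitors. It had a peak of 1579 bp at E11.5 (chr5:101663272-101664850), 1007 bp at E13.5 and 0 at E15.5. Onecut1, a cut-homeodomain factor of early neurons, had 1243 bp at E11.5, 968 bp at E13.5 and 0 at E15.5. Both had intermediate values at E13.5. Pde8a, a phosphodiesterase, had 1413 bp at E11.5 and 0 at both later stages. The others of the first 10 were Vwa7, Rbpjl, Sergef, Lgals3bp, Ccne1, Tlx2 and Trim62, with 1092 to 1252 bp at E11.5. Of gained TSS outside the HoxA cluster and the start of chromosome 9, Gria2 was followed by Smarca2, the ATPase of the SWI/SNF remodelling complex, with 0 at E11.5, 474 bp at E13.5 and 1923 bp at E15.5. Then came Rpl36 with 1704 bp, Abhd11 with 1561 bp and Chl1, a cell adhesion protein of axons, with 1518 bp at E15.5.

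The widest gained peaks lay over the HoxA cluster, whose genes set position along the body axis and are known for expression behind the forebrain. At E15.5 3 adjoining peaks covered 143146 of 143503 bp, namely chr6:52066315-52080523, chr6:52080713-52145855 and chr6:52146024-52209817, with gaps of 189 and 168 bp. At E11.5 there was no peak there, and at E13.5 60 peaks covered 130193 bp. All 8 TSS in it were gained, 6 of them Hox genes, with Hoxa2, Hoxa4 and Hoxa5 covered over the whole window. Of the other 33 Hox genes, 4 were kept, 11 lost and 3 gained, a different makeup from the 6 in the covered region. Without these peaks 20.5% of Hox genes were marked at E15.5, against 33.3% with them and 38.5% at E11.5. With the narrow E11.5 peaks left out, as for the CR markers, 23.1% were marked at E11.5, which is below the E15.5 share with the HoxA peaks and above that without them. At the start of chromosome 9, 9 predicted genes with names in Gm were covered by 7 peaks of 1387 bp in all at E11.5, 54 of 12201 bp at E13.5 and 49 of 16698 bp at E15.5. There 7 were kept and 2 gained, and they fill many of the first places by increase. The part of repeats or copy number at these places was not tested.

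Over 5 kb from any TSS, the widest lost peak was 1229 bp over an exon of Plec (chr15:76173478-76174706), a cytoskeletal linker, and was not in the E13.5 list. The next were an intergenic peak of 1182 bp at chr7:65719229-65720410, 28060 bp from the TSS of Tm2d3, and a peak of 1159 bp at chr8:123547032-123548190 that overlaps a 5S rRNA copy. Both were in the E13.5 list. The widest gained distal peaks were the HoxA peaks of 65143 and 14209 bp, followed by 1767 bp in an intron of Atp2b2, a calcium pump of the neuronal membrane (chr6:113890050-113891816). It was also in the E13.5 list.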

How the data were processed

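Per the submitters' processing notes and methods, the authors mapped ChIP and input reads to mm10 with Bowtie 1.1.2, allowing up to 3 mismatches, and called peaks with MACS at p = 1e-05; its version, and whether replicate libraries were pooled, are not given in the sources used here. The deposited lists give each peak's position and a score that the authors left at 0 for every peak, so widths and positions were used. Overlaps, protein-coding TSS (GENCODE M21), peak bases within 5 kb of a TSS and base composition were computed with Python 3.11.15, pandas 2.3.3, numpy 2.4.6, scipy 1.17.1 and matplotlib 3.10.9, on chromosomes 1 to 19, X and Y, and the steps were tested on simulated data. The gene's most upstream annotated start was its TSS. Named genes were the 10 per group with the most peak bases or the largest increase or decrease, all members of 4 marker lists, and up to 4 members per class of every other list; genes named as next outside HoxA and the start of chromosome 9 were added after their values were seen. Members and lists were chosen with earlier results of these data known. No test was possible with 1 list per group. Untranslated sequence was not printed, which leaves Brinp1 without a sequence. A few genes are not reported here.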

Additional observations from a re-analysis of the deposited data

Results flagged for a closer look

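The E15.5 H3K27ac list held 6 peaks on the mitochondrial chromosome, of 200 to 631 bp, which were not used in any comparison. The E13.5 list held 4 such peaks, of 152 to 315 bp, and the E11.5 list 0. Of the H3K27me3 lists, that of E15.5 held 9, that of E11.5 EGFP- cells 1, and the others 0. Mitochondrial DNA carries no histones, no control list was analysed here, and with depth unknown the lists could not be compared.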

How the results depend on the processing

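Over 8 summary values, 61 recalculations were made under 9 settings, and 21 moved beyond the counting interval or by over 1.5 times. The width ratio, 1 of the 8 values, kept its sign in each recalculation of it. Shared E11.5 peaks (27.5%) became 56.8% with peaks of at least 300 bp, 35.0% with lists shortened to equal length by width, 26.1% with peaks within 1 kb merged, 14.4% with a reciprocal overlap of at least 50%, and 37.0% with E11.5 peaks no narrower than the narrowest E15.5 peak. Shared E15.5 peaks (35.8%) became 43.4%, 32.4%, 36.7%, 20.7% and 31.5%, and the median log2 width ratio (0.54) 0.49, 0.50, 0.49, 0.36 and 0.50. With peaks of at least 300 bp, 5444 TSS were kept, 888 lost and 3909 gained, against 8784, 2173 and 2684, and 1388 kept TSS had at least 2-fold more and 47 at least 2-fold less. With equal lengths, 1616 were lost and 3375 gained. TSS with at least 2-fold less (277) were 435 with merged peaks and 102 in a window of 1 kb. The cause was not tested. The width limit at E11.5, and leaving out the HoxA and chromosome 9 places, were chosen after seeing the data. No paired analysis was possible because each stage has 1 list, and for the same reason no replicate could be left out. Read depth is unknown and limits every lost or gained call.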
